A study of Mus musculus with 8 samples.

Results

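The genes described here encode the collagens, the laminins and other basement membrane proteins, matrix proteases with their inhibitors, cross-linking enzymes and further matrix proteins. They were chosen by gene symbol: every collagen chain, laminin, MMP, TIMP, ADAMTS and lysyl oxidase symbol on the array, and 16 single names such as Fn1, Sparc and Dcn. Of 67 such symbols with a probe of their own, 44 were measured on at least 3 arrays of each genotype, out of 7603 named genes that met this limit. The symbols of this set rested on 128 probes, of which 76 met the limit.

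Transcripts were measured in whole hearts of connexin43 null neonatal mice and of wildtype neonatal mice, both of C57BL background. Connexin43, encoded by Gja1, forms gap junction channels that couple working heart muscle cells. Each genotype had 4 arrays, and each array carried Cy3-labelled cDNA from a pool of 3 hearts beside a Cy5-labelled reference from tissues of adult male and female C57BL mice, made once for the whole study. Each spot gave the log2 ratio of heart to reference, with the median of each array set to 0, so that a value of 1 means a ratio 2-fold above that of the median spot. The null mice carry no further allele or treatment that the labels name, and the age is given only as neonatal. A pool hides the spread between single animals, and fewer cells of a type and less RNA per cell cannot be told apart in whole hearts.

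Fibrillar collagens form the tensile fibres of the heart wall. Collagen IV, laminins, nidogens and perlecan build the basement membrane around heart muscle cells and capillaries. Matricellular proteins and small proteoglycans tune how the fibres assemble, lysyl oxidases cross-link them, and metalloproteases, held in check by TIMPs, cut them. In the neonatal heart fibroblasts make much of this matrix, while the muscle is still growing.

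Gja1 checked the labels. Its log2 ratio was -0.29, 0.25, 0.12 and 0.22 on null arrays 1 to 4, against 1.04, 1.31, 0.99 and 0.79 on wildtype arrays 1 to 4. The highest null value stood under the lowest wildtype value (exact two-sided permutation test p = 0.0286, the smallest that 4 against 4 arrays can give). The difference of -0.95 (SE 0.15) ranked 2 of all features and did not pass either (limma adjusted p = 0.340). The position of its probe relative to the deleted part is not known here. Heart muscle markers had mean log2 ratios of 0.65 to 0.87 on null arrays and 0.66 to 0.85 on wildtype arrays, over 10 genes. Wildtype replicate 1 stood apart: it had values at 12971 spots, against 17879 to 23929 on the other arrays, and the lowest median rank correlation with the others, 0.57 against at least 0.68. It also lacked a value for all 23 symbols of this set that could not be tested.

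The comparison asked whether matrix transcripts differ when connexin43 is absent. Most of the set had somewhat higher values in null hearts: 31 of 44 genes (70.5%), against 40.9% of all 11804 features tested. The median log2 difference, null minus wildtype, was 0.09 over the 44 genes and -0.04 over all features. No gene passed. The limma test with Benjamini-Hochberg adjustment called 0 features (0%) at an adjusted p of 0.05, and the smallest adjusted p in the set was 0.483, that of Loxl2.

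At an unadjusted p under 0.05, 4 of the 44 genes had higher values in null hearts (Loxl2, Sparcl1, Fn1 and Col6a3), against 2.10% of all features. Another 2 had lower values (Lamc3 and Timp4), against 6.13% of all features. Groups did not overlap for 1 gene with higher values in null hearts, Loxl2, against 2.00% of all features. They did not overlap for 3 genes with lower values, Lamc3, Timp4 and Adamts10, against 5.54%. As shares of 44, these counts come to 9.09%, 4.55%, 2.27% and 6.82%. Without centring of the arrays 18 of 44 genes had higher values, against 15% of all features, and the medians were -0.04 for the set and -0.18 for all features. The median of the set was higher than that of all features under both scalings, while its sign depended on the centring.

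**Figure D1:**
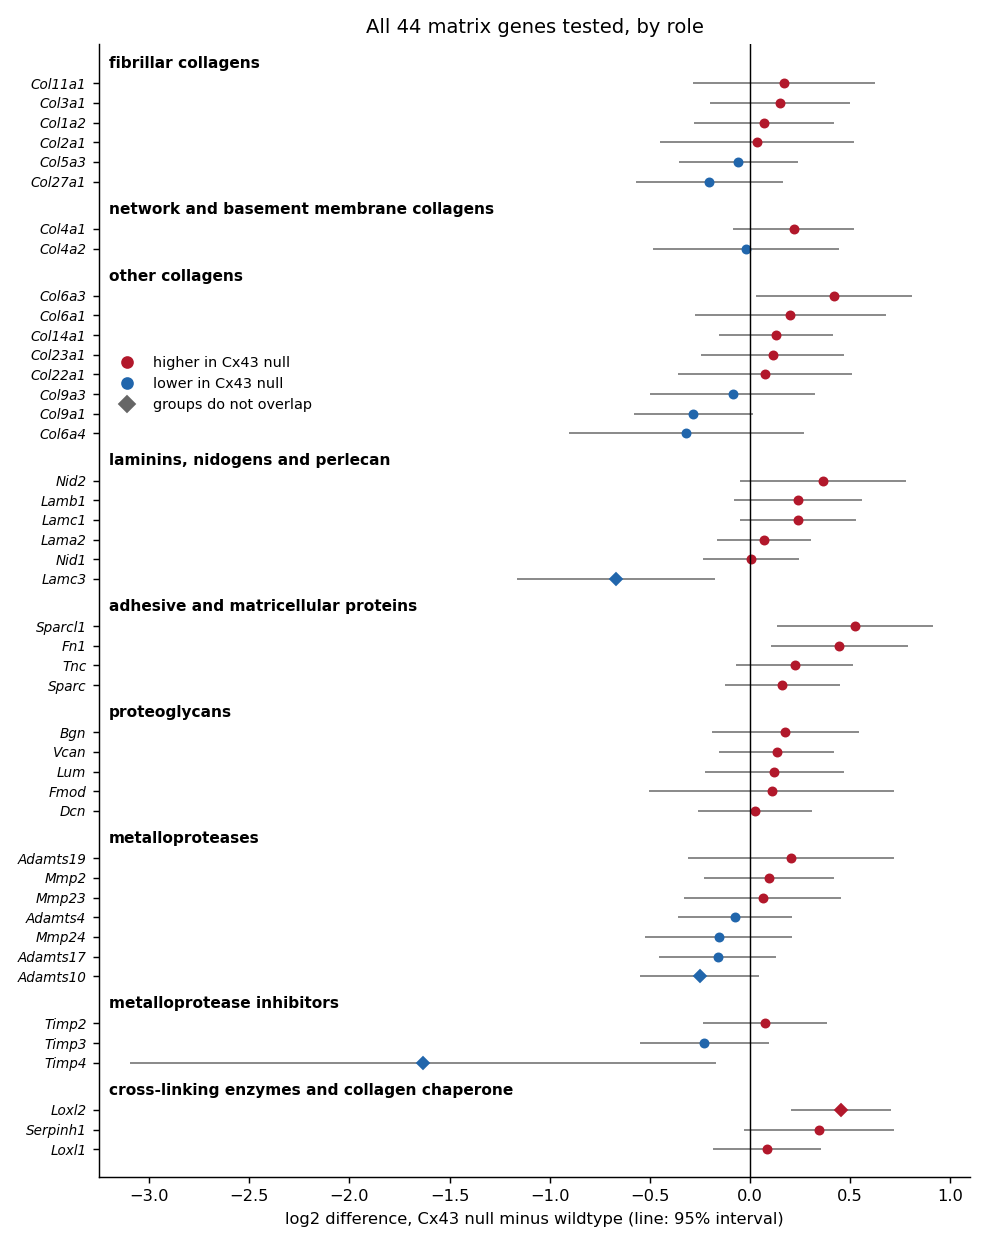
Log2 difference, Cx43 null minus wildtype, on the horizontal axis for each of the 44 matrix genes tested, grouped by role; lines are 95% intervals from the limma fit and diamonds mark genes whose groups do not overlap. All tested adhesive proteins, proteoglycans, cross-linking enzymes and the collagen chaperone Serpinh1 lie on the side of higher values in null hearts. Without centring 4 of 4 adhesive proteins, 1 of 5 proteoglycans, and 2 of 3 among the enzymes with Serpinh1 did. Of the 44 intervals, 38 include 0.

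The difference between genotypes moved with the level of the ratio, and the part of this level in the matrix values was tested only by removing the trend. When all features were put in 5 groups of equal size by their mean ratio, the share with higher values in null hearts was 23.5% in the lowest group and 57.8% in the highest. Of the 44 matrix genes, 25 lay in the highest group, and 22 of these 25 had higher values in null hearts. In the lowest group 1 of 5 did. Mean ratios of the set lay above 0 for 33 of 44 genes in null hearts and for 33 of 44 in wildtype hearts, against 47.7% and 53.1% of all features, so that most of these transcripts were richer in neonatal heart than in the adult reference, relative to the median spot. With the trend on the mean ratio removed, an alternative chosen after seeing the data, 29 of 44 genes had higher values, against 48.5% of all features.

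**Figure D2:**
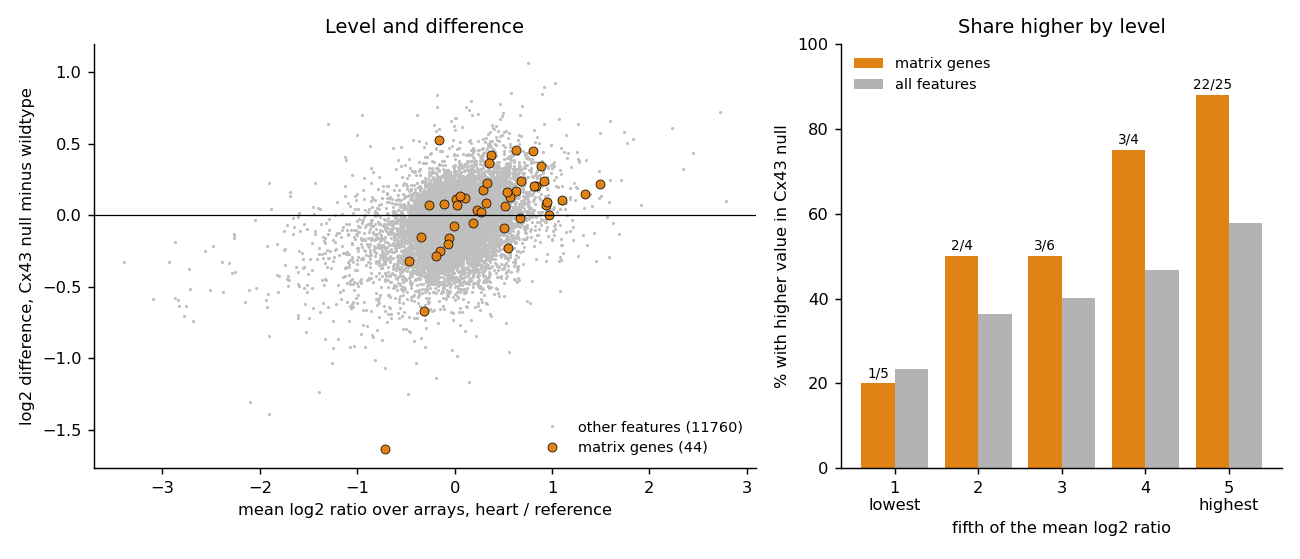
Left, mean log2 ratio of heart over reference (horizontal) against the log2 difference, Cx43 null minus wildtype (vertical), for the 44 matrix genes and all other features. Right, percent of matrix genes and of all features with a higher value in Cx43 null hearts, in 5 groups of equal size by mean ratio; 22 of 25 matrix genes in the highest group had higher values, against 57.8% of all features.

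Among the fibrillar collagens, 4 of 6 tested genes had higher values in null hearts (1 of 6 without centring), with differences from -0.20 to 0.17 and none at an unadjusted p under 0.05. Col3a1, which encodes the chain of type III collagen, had log2 ratios of 1.66, 1.18, 1.30 and 1.52 in null hearts and 0.90, 1.35, 1.55 and 1.27 in wildtype hearts. Wildtype replicate 1 held the lowest value, and the other wildtype arrays lay within the range of the null arrays. The difference was 0.15 (SE 0.16, 95% interval -0.20 to 0.49, limma adjusted p = 0.80), with 0.10, 0.15 and 0.19 on its 3 probes, 0.03 without wildtype replicate 1, and -0.01 without centring.

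Col1a2, the second chain of type I collagen, was also lowest on wildtype replicate 1: it read 1.15, 0.97, 0.72 and 1.06 in null hearts and 0.47, 1.09, 1.07 and 0.99 in wildtype hearts. Its difference of 0.07 (SE 0.16) was -0.08 without wildtype replicate 1, and -0.09 without centring. Col1a1, the partner chain, had values on only 2 arrays of each genotype, 1.70 and 1.52 in null hearts and 1.39 and 1.63 in wildtype hearts, and was not tested. Col3a1, Col1a2 and Col1a1 thus stood above the median spot in both genotypes, and for Col3a1 and Col1a2 the difference was no larger than the spread between pools.

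Col11a1, a minor fibril chain of cartilage and heart valves, had a mean ratio of 0.71 ± 0.37 in null hearts, against 0.54 ± 0.33 in wildtype (SD, n = 4 each). Col27a1 had -0.17 ± 0.24 and 0.04 ± 0.29, and for both genes 1 of the 2 probes had no value on wildtype replicate 1, so that the fit of probe and array effects placed that array from the other probe alone. Col5a2, which joins type I fibrils, was not tested because no probe reached 3 wildtype arrays; its 3 probes with values lay between 0.57 and 1.70 on null arrays and between 0.72 and 1.58 on wildtype arrays.

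Serpinh1 encodes HSP47, the chaperone that binds procollagen in the endoplasmic reticulum. Its log2 ratio was 1.16, 1.08, 0.93 and 1.06 in null hearts and 0.17, 0.82, 1.01 and 0.87 in wildtype hearts. The null arrays lay close together, with an SD of 0.09 against 0.37 in wildtype, and 3 of them lay above every wildtype value. The difference of 0.34 (SE 0.17, limma adjusted p = 0.597) was 0.16 without wildtype replicate 1 and 0.18 without centring, and its 2 probes gave 0.39 and 0.29.

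Col1a2, Col3a1 and Serpinh1 each had the lowest wildtype value on replicate 1, a trait not particular to them. Replicate 1 was the lowest wildtype array for 16 of the 34 matrix genes counted and for 37.8% of all features. It was the highest for 11 of the 34 and for 34.5% of all features. Col1a2, Col3a1 and Serpinh1 were chosen, after the values were seen, as interstitial collagen chains and their chaperone with the same lowest array. Their promoters are shown. They are given as the 250 bases before the RefSeq start in build GRCm38.p6, at chr6:4505368-4505617 on the plus strand, chr1:45311288-45311537 on the plus strand and chr7:99353240-99353489 on the minus strand. Capitals mark the letters CCAAT, the letters TATAAA and the letters GGGCGG, each searched on both strands.
Col1a2: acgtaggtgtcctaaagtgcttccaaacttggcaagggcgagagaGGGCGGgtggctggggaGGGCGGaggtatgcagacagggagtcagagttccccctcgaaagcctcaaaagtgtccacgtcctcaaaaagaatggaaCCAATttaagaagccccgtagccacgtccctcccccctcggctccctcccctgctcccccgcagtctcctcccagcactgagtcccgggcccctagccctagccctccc
Col3a1: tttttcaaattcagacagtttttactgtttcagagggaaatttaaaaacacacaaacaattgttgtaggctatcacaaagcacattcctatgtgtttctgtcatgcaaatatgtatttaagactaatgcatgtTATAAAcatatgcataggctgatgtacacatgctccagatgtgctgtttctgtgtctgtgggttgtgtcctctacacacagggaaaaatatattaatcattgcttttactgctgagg
Serpinh1: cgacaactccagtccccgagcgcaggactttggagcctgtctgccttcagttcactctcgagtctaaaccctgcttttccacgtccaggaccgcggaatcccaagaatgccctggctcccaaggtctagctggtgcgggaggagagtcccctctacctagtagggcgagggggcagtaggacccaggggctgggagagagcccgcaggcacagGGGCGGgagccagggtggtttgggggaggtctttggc
The Col1a2 window held CCAAT beginning 109 bases before the start and GGGCGG beginning 205 and 188 bases before it. The Col3a1 window held TATAAA beginning 117 bases before the start, and the Serpinh1 window held GGGCGG beginning 37 bases before it. CCAAT was found in 33.8% of 32851 windows of this length, TATAAA in 12.4% and GGGCGG in 32.7%. Of 30 windows of 27 tested matrix genes, 12, 3 and 17 held them. These matches describe letters only, and the arrays measured no binding.

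Basement membrane genes gave a mixed picture. Col4a1 and Col4a2 encode the main chains of collagen IV and lie head to head, with RefSeq starts 21 bases apart on opposite strands. Windows of 300 bases around these starts shared 78 bases. These windows are longer than those shown above, which hold only bases before the start. The shared stretch includes bases after the starts. Col4a1 read 1.59, 1.58, 1.64 and 1.62 in null hearts, against 1.01, 1.41, 1.46 and 1.67 in wildtype hearts. The null arrays were nearly equal, with an SD of 0.03 against 0.27, and wildtype replicate 4 lay above them all. The difference was 0.22 (SE 0.14, limma adjusted p = 0.667), 0.09 without wildtype replicate 1, and 0.06 without centring.

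Col4a2 read 0.93, 0.65, 0.08 and 0.97 in null hearts and 0.84, 0.56 and 0.64 on wildtype arrays 2 to 4. The groups overlapped, the difference was -0.02 (SE 0.21), and it was 0.17 without null replicate 3, the lowest array. Whether the chains differ from each other was not tested.

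The laminin chains Lamb1 and Lamc1, which pair with an alpha chain in most heart laminins, both had higher values in null hearts, by 0.24 each and by 0.08 each without centring. Over the role 5 of 6 tested genes did so, and 3 of 6 without centring. Lamc1 read 0.69, 0.90, 0.79 and 0.82 in null hearts, against 0.38, 0.77, 0.33 and 0.75 in wildtype hearts. Wildtype replicates 2 and 4 reached into the null range while the other wildtype arrays lay below it. Its difference of 0.24 (SE 0.13, adjusted p = 0.620 in limma) averaged 5 probes, which gave 0.46, 0.41, 0.20, 0.03 and 0.02. A further Lamc1 probe, left out for its missing values, gave -0.19 over 4 null and 2 wildtype arrays. Another gave -0.25 over 3 null arrays and 1 wildtype array. Lamb1 had a mean ratio of 1.04 ± 0.24 in null hearts, against 0.80 ± 0.18 in wildtype (SD, n = 4 each), with 0.34, 0.21 and 0.21 on its 3 probes. Lama2, the alpha chain of muscle laminin, stood near the median spot in both genotypes, at 0.06 ± 0.13 and -0.01 ± 0.06.

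Lamc3, a gamma chain best known from nerve and retina, had lower values in null hearts. It read -0.69, -0.70 and -0.56 on 3 null arrays, against 0.56, -0.21 and -0.29 on 3 wildtype arrays. The groups did not overlap, and wildtype replicate 1 stood far above the rest. The difference was -0.67 (SE 0.22, adjusted p = 0.553 in limma), and -0.40 without wildtype replicate 1.

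The nidogens link laminin to collagen IV. Nid1 had nearly equal means: it read 0.99, 0.97, 0.93 and 0.97 in null hearts and 1.17, 0.97, 0.82 and 0.89 in wildtype hearts. Its difference of 0.0033 had a 95% interval of -0.23 to 0.24. Nid2 had a difference of 0.36 (SE 0.19), which rested in part on null replicate 3, at 1.14 against 0.20 to 0.41 on the other null arrays. It was 0.16 without that array and 0.21 without centring.

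Collagens outside the fibrillar and network classes had higher values in null hearts for 5 of 8 genes (4 of 8 without centring), with differences from -0.32 to 0.42. The one with the smallest p was Col6a3, a chain of the beaded collagen VI filaments that surround muscle cells. It read 0.41, 0.61, 0.87 and 0.45 in null hearts, against -0.18, 0.15, 0.06 and 0.65 in wildtype hearts. Wildtype replicate 4 lay within the null range and the other wildtype arrays below it. The difference was 0.42 (SE 0.17, 1.34-fold, unadjusted p = 0.0352 and adjusted p = 0.587 in limma), and 0.30 to 0.58 when any array was left out. Without centring it was 0.26, with an unadjusted p of 0.225 in limma. Its partner chain Col6a1 had 0.92 ± 0.18 in null and 0.72 ± 0.49 in wildtype hearts, with wildtype replicate 3 at 0.04, and a difference of -0.02 without that array. The cartilage collagen genes Col9a1 and Col9a3 had differences of -0.28 (SE 0.13) and -0.09 (SE 0.19).

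Adhesive and matricellular proteins had higher values in null hearts for 4 of 4 tested genes, and also without centring, after quantile normalization, scaling to equal spread, centring within blocks of spots or removal of the trend. The median difference was 0.33, and 0.18 without centring. Fn1 encodes fibronectin, the adhesive protein that cells assemble into the early provisional matrix. It read 0.72, 1.05, 1.02 and 1.31 in null hearts, against 0.35, 0.81, 0.42 and 0.74 in wildtype hearts. Null replicate 1 lay just below wildtype replicates 2 and 4, and the other null arrays lay above all wildtype arrays. The difference was 0.45 (SE 0.15, 1.36-fold, unadjusted p = 0.0142, adjusted p = 0.553 in limma), and lay between 0.35 and 0.55 when any array was left out. Without centring it was 0.29, with an unadjusted p of 0.152 in limma.

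Sparcl1, also called hevin, encodes an antiadhesive relative of SPARC. It read 0.09, 0.19, 0.18 and -0.03 in null hearts, against -0.90, 0.04, -0.53 and -0.28 in wildtype hearts. Wildtype replicate 2 lay above null replicate 4, so the groups overlapped by 1 array each. Its difference was the largest with a higher value in null hearts in the set, 0.52 (SE 0.18, 1.44-fold, adjusted p = 0.553 in limma), and 0.37 without wildtype replicate 1. Without centring the unadjusted limma p of Sparcl1 was 0.0685. Fn1 and Sparcl1 rest on 1 probe each.

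Sparc itself, a collagen-binding glycoprotein, had a mean ratio of 0.62 ± 0.16 in null hearts, against 0.46 ± 0.18 in wildtype. Tenascin C, the product of Tnc, marks remodelling tissue, and its gene had 0.44 ± 0.23 in null hearts, against 0.22 ± 0.11 in wildtype (SD, n = 4 each). Among the 3 Tnc probes 1 gave 0.43 and the others 0.13 and 0.12. Without centring the differences of Sparc and Tnc were 0.0021 and 0.06. Postn had no probe with a single symbol, and Thbs2 had a value on 1 wildtype array.

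**Figure D3:**
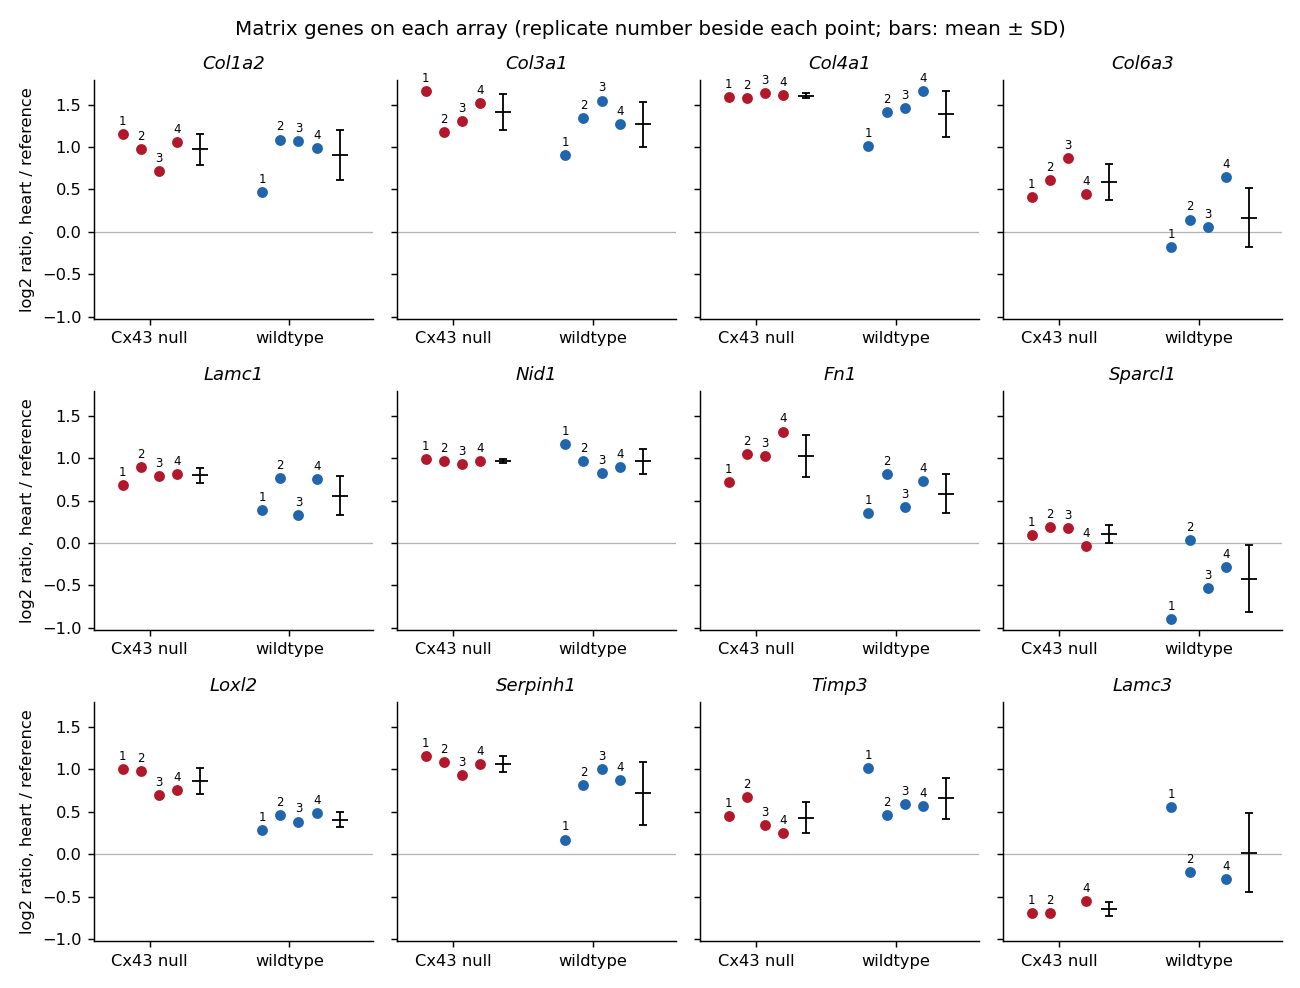
Log2 ratio of heart over reference (vertical axis) for 12 matrix genes on each array; points are arrays, numbered by replicate, Cx43 null left of wildtype, and bars give the mean ± SD. Loxl2 and Lamc3 do not overlap between genotypes, and wildtype replicate 1 is the lowest wildtype array for Col1a2, Col3a1, Col4a1, Col6a3, Fn1, Sparcl1, Loxl2 and Serpinh1 and the highest for Nid1, Timp3 and Lamc3. Of all features, wildtype replicate 1 is the lowest wildtype array for 37.8% and the highest for 34.5%.

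Differences were small among the proteoglycans. All 5 tested genes had higher values in null hearts (1 of 5 without centring, 4 of 5 after quantile normalization or scaling to equal spread), by 0.02 to 0.18, and none at an unadjusted p under 0.05. Decorin and lumican, small proteoglycans that bind collagen fibrils and are encoded by neighbouring genes, had differences of 0.02 (SE 0.13) and 0.12 (SE 0.15). Dcn read 0.42, 0.16, 0.24 and 0.33 in null hearts and 0.06, 0.37, 0.51 and 0.11 in wildtype hearts, with full overlap. Biglycan, from Bgn, had a difference of 0.18 (SE 0.17) over 3 probes that gave 0.37, 0.20 and -0.14. The last of them read -1.44 on null replicate 2 and 0.14 to 0.80 on the other null arrays. Fmod, which encodes fibromodulin, had its highest values on null replicate 3, at 1.70, and wildtype replicate 1, at 1.91, and spread more widely within each genotype (SD 0.40 and 0.58) than between them (0.11). Vcan, which encodes the large proteoglycan versican of the developing heart, had a difference of 0.13 (SE 0.13) on 1 probe. A second Vcan probe, left out for its missing values, gave 1.02 over 2 null and 3 wildtype arrays.

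Proteases showed no common direction, with higher values in null hearts for 3 of 7 genes, against 40.9% of all features. Differences lay between -0.25 and 0.20, and without centring 2 of 7 genes had higher values. Mmp2, the gelatinase that fibroblasts secrete, read 1.08, 1.09, 0.83 and 0.98 in null hearts and 1.31, 0.82, 0.82 and 0.65 in wildtype hearts. Wildtype replicate 1 held the highest value and replicate 4 the lowest. The difference was 0.09 (SE 0.15), and 1 of its 2 probes had no value on wildtype replicate 1. Adamts10, a protease that binds fibrillin microfibrils, had lower values on all 4 null arrays, at -0.23, -0.22, -0.39 and -0.19, than on the 3 wildtype arrays measured, at 0.23, -0.12 and -0.13. Its difference was -0.25 (SE 0.13, unadjusted p = 0.0820, adjusted p = 0.614 in limma) and rested on 1 probe. A second Adamts10 probe was left out because only 1 wildtype array had a value. It read 0.35, 0.36, 0.43 and 0.03 in null hearts, against 0.26 on wildtype replicate 4. Mmp9 was not tested.

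Of the TIMPs, inhibitors of the metalloproteases, Timp4 had the lowest difference of the set, -1.63 (SE 0.65, adjusted p = 0.574 in limma). It read -0.73, -3.76 and -0.46 on 3 null arrays, against 0.47, -0.38, 0.13 and -0.29 on the wildtype arrays. The groups did not overlap, but null replicate 3 lay far below the rest, and the difference was -0.58 without it. Timp3, the TIMP that binds to the matrix, read 0.45, 0.67, 0.35 and 0.25 in null hearts and 1.01, 0.46, 0.59 and 0.57 in wildtype hearts. Null replicate 2 lay inside the wildtype range and the other null arrays below it. The difference was -0.23 (SE 0.14), with -0.20 and -0.29 on its 2 probes, and -0.11 without wildtype replicate 1. Timp2 had 0.08 (SE 0.14), and its 4 probes spread from -0.21 to 0.18. Hspg2, Thbs1, Mmp14 and Timp1 were not analysed here.

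Loxl2, a lysyl oxidase relative that cross-links collagen IV, had the smallest p-value of the set. It read 1.00, 0.98, 0.70 and 0.75 in null hearts, against 0.29, 0.47, 0.38 and 0.48 in wildtype hearts, and all null arrays lay above all wildtype arrays. The difference was 0.45 (SE 0.11, 1.37-fold, unadjusted p = 0.00192), rank 47 of 11804 features, and between 0.41 and 0.51 when any array was left out with the probes kept the same. Without centring it was 0.30, with an unadjusted p of 0.0446 in limma. Its 2 probes did not give like values. The first read 1.70, 1.72, 1.40 and 1.40 in null hearts against 0.89, 0.55 and 1.00 on wildtype arrays 2 to 4, a difference of 0.74. The second read 0.30, 0.24, -0.00071 and 0.11 in null hearts against -0.27, 0.04, 0.22 and -0.04 in wildtype hearts, a difference of 0.17 with groups that overlapped. Where a probe needed values on all 8 arrays, which left the second probe alone, the Loxl2 difference was 0.17. Loxl1, which acts on elastin, had a difference of 0.08 (SE 0.12). Lox, the main enzyme, was not tested: it read 0.76, 0.79, 1.54 and 0.67 on the null arrays and 0.54 on both wildtype arrays with a value.

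**Figure D4:**
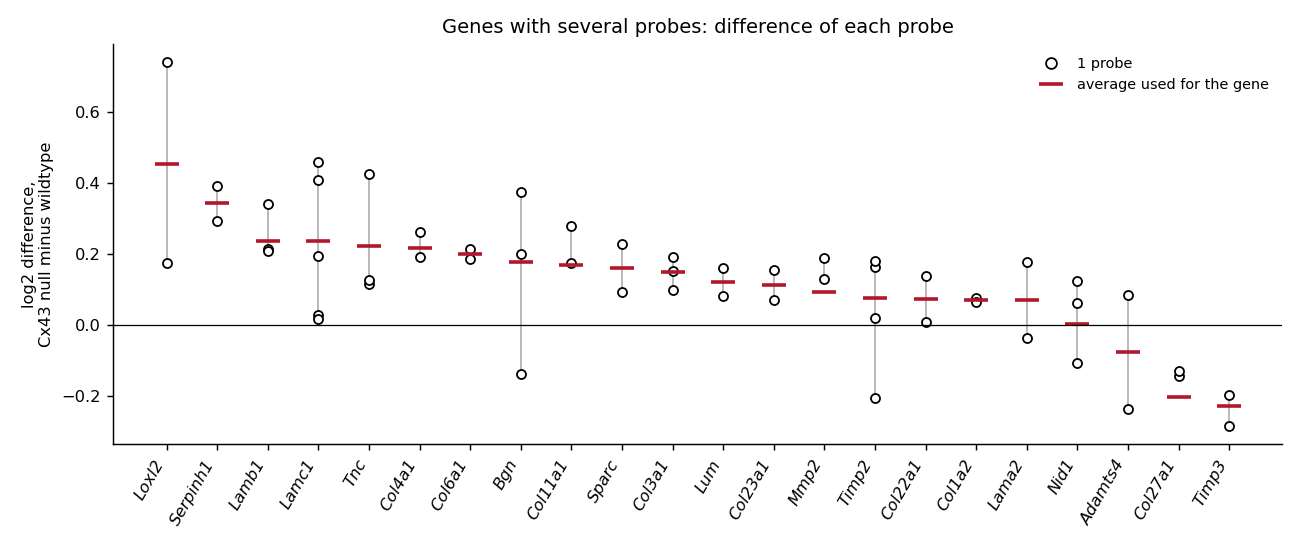
Log2 difference, Cx43 null minus wildtype (vertical axis), of each probe (open circles) for the 22 matrix genes with several probes, and the average used for the gene (red bars). Probes of 5 genes lie on both sides of 0, and the probes of Loxl2 lie at 0.74 and 0.17; the averages of Col11a1, Col27a1 and Mmp2 lie outside their probes, and 1 probe of each lacked wildtype replicate 1.

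The 23 untested symbols were not missing evenly. No probe of Col15a1, Lama4, Lama5 or Mmp19 had a value on any array, and all 23 lacked a value on wildtype replicate 1. Lamb2, a beta chain of muscle laminin, read 0.80, 0.64, 0.50 and 0.87 in null hearts and 0.74 and 0.77 on 2 wildtype arrays. The protease gene Adamts1 read 1.03, 1.29, 1.23 and 0.88 in null hearts and 0.84 and 1.22 on 2 wildtype arrays. The wildtype values of Lamb2 lay within its null range, and 1 of the Adamts1 values lay just below its null range. Col12a1 had values on 3 wildtype arrays, 0.24, 0.01 and 0.30, and on no null array. Another 7 probes matched a matrix gene together with a second symbol, among them probes of Postn, Col5a1 and Col6a2, and were not used.

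Genes of collagen processing, a list kept apart from the set, had higher values in null hearts for 11 of 17, against 40.9% of all features. The median was 0.03. The lists kept apart from the set, here and below, were counted on centred arrays only. At an unadjusted p under 0.05 there was 1 gene in each direction, against 2.10% of all features higher and 6.13% lower. Groups did not overlap for 2 of the 17, both higher in null hearts, against 2.00% of all features. Both lacked a value on wildtype replicate 1. P3h3, of the prolyl 3-hydroxylase family, read 0.94, 0.68, 0.97 and 0.74 in null hearts against 0.43, 0.21 and 0.45 on wildtype arrays 2 to 4. No null value lay in the wildtype range, and the difference was 0.47 (SE 0.13, unadjusted p = 0.00418, adjusted p = 0.519 in limma). Crtap, a partner in prolyl 3-hydroxylation, read 0.88, 0.84, 0.95 and 0.98 in null hearts against 0.70, 0.60 and 0.80, again without overlap and with a difference of 0.22 (SE 0.11). Its complex partner Ppib had -0.08 (SE 0.13). Pcolce2, which enhances cleavage of the procollagen tail, had -0.44 (SE 0.18, adjusted p = 0.587 in limma), with null replicate 3 lowest at -1.60.

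Matrix receptors, mainly integrins, syndecans and dystroglycan, had higher values for 8 of 15 genes, against 40.9% of all features, and differences from -0.25 to 0.14. None was at an unadjusted p under 0.05 in either direction, against 2.10% of all features higher and 6.13% lower. Itgb1, the beta chain shared by most collagen and laminin receptors, had 0.14 (SE 0.10). Signals that induce matrix had higher values for 8 of 16 genes, against 40.9% of all features, and a median of 0.01. Pdgfrb, a growth factor receptor of fibroblasts and pericytes, had the single unadjusted p under 0.05 among these 16, at a difference of 0.34 (SE 0.14, adjusted p = 0.588 in limma). Of all features, 2.10% had higher and 6.13% lower values at such a p. Tgfb2 had 0.27 (SE 0.18) and Tgfbr2 -0.21 (SE 0.15).

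Markers of some other cells had higher values in null hearts as well, where 40.9% of all features did. Fibroblast markers outside the set had higher values in null hearts for 6 of 8 measured genes, with a median of 0.16, and Tcf21, Thy1, S100a4, Fbln1 and Fbln2 were not analysed here. The mean ratio of the 6 with values on all 8 arrays was 0.66 to 0.79 on null arrays and 0.47 to 0.67 on wildtype arrays. Vim, Fstl1 and Pdgfrb led them at 0.63, 0.24 and 0.34, while Mfap5 had -0.55 (SE 0.22). Endothelial markers had higher values for 6 of 7 genes, with mean levels of 0.71 to 0.84 on null arrays inside the 0.38 to 0.92 of wildtype arrays. All 7 endothelial markers lay in the highest of the 5 groups by mean ratio, where 57.8% of all features had higher values. Erythroid markers had higher values for 7 of 8 genes, with a median of 0.20, and mean levels of -0.27 to -0.04 on null arrays inside the -0.74 to 0.01 of wildtype arrays. Markers of other adult tissues had lower values for 9 of 10 genes, with a median of -0.31. Of these, 3 had an unadjusted p under 0.05, against 6.13% of all features with lower values at that p. These 10 markers lay in the lowest of the 5 groups by mean ratio, where 23.5% of all features had higher values. Macrophage markers had higher values for 2 of 4 genes and epicardial markers for 1 of 3. Smooth muscle markers had higher values for 1 of 4 genes and heart muscle markers for 4 of 10. Counts and medians of the marker lists are from centred arrays, and were not taken without centring. The part of these markers in the matrix values was not tested.

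**Figure D5:**
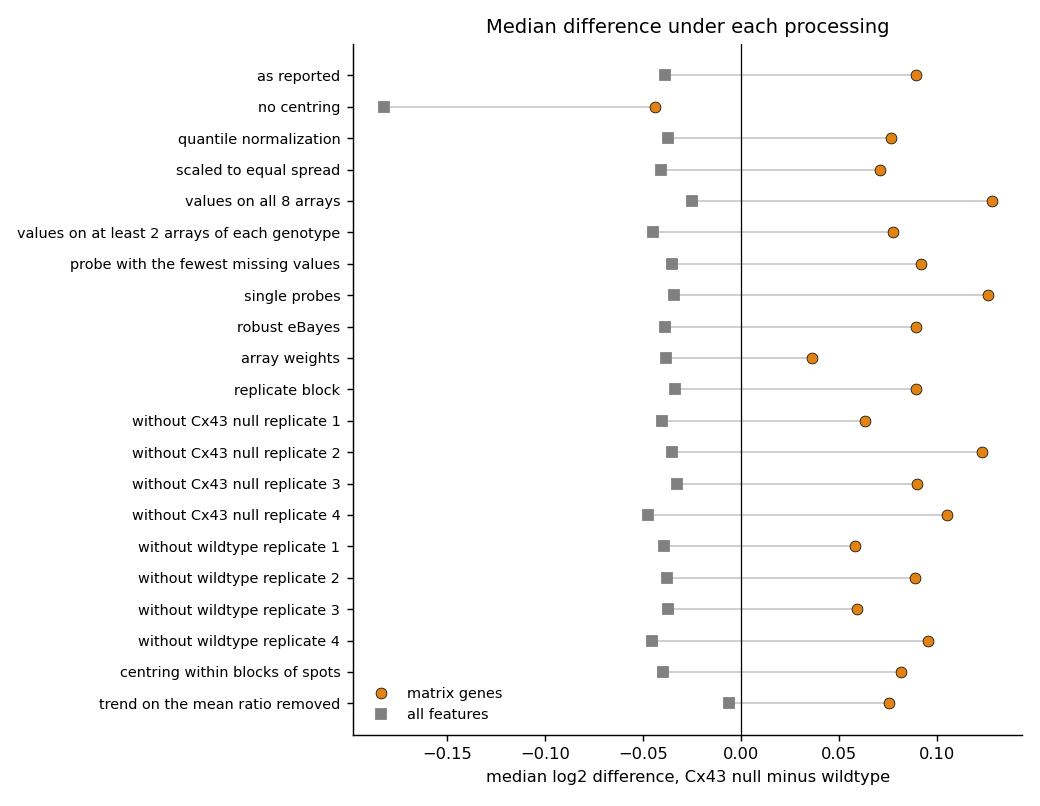
Median log2 difference, Cx43 null minus wildtype (horizontal axis), of the matrix genes and of all features under each processing. The matrix median lies above that of all features under all settings drawn, and both lie below 0 without centring of the arrays, at -0.04 and -0.18.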

How the data were processed

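The deposited values are log2 ratios per spot of 2-colour cDNA arrays. The scanner software, the spot filter, the background correction and any scaling by the authors: not given in the sources used here. The base was read from the deposited values: among 31304440 differences between spots of the same 598-spot block, base 2 turned 8347 into ratios of integers no larger than 120 (tolerance 1.5e-09), the natural base 269 and base 10 863. The labels name the dyes but not the direction of the ratio. Heart was taken as numerator because 10 heart muscle markers had medians of 0.60 to 0.78 and 10 markers from elsewhere in the adult body -2.54 to -1.63, in that order on 8 of 8 arrays.

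The median of every array was subtracted. Probes were named through the platform annotation: of 28704, 18511 had 1 symbol, 937 several and 9256 none here. All 128 probes of the set matched a gene number in the GRCm38.p6 table, and 0 received a newer symbol. A probe needed values on 3 of 4 arrays of each genotype. Probes of 1 symbol were combined in an additive model (array plus probe), so an array missing from 1 probe takes its value from the others. This left 11804 features, 7603 of them named genes. Null minus wildtype was fitted over all of them with lmFit and eBayes (limma 3.58.1, R 4.3.3). P-values were adjusted by Benjamini-Hochberg over all features, with a threshold of 0.05. The median SE was 0.155 for the set and 0.138 for all features, and the number of arrays limits the precision. The labels describe replicates as pools of hearts and do not say which shared a litter or day. They number both genotypes 1 to 4. Same-numbered arrays did not deviate together (r of -0.25 to -0.01 in 4 pairs). Pairs with unlike numbers had r of -0.142 to 0.285, the highest for null replicate 1 with wildtype replicate 3. The code was tested on simulated data.

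Named genes are the main members of each role, and every member at an unadjusted p under 0.05 or without overlap between groups. Col11a1, Col27a1, Col6a1, Col9a1, Col9a3, Col12a1, Adamts1, Ppib, Crtap, Itgb1, Tgfb2 and Tgfbr2 were singled out after their values were seen. Members, lists, markers and alternatives were chosen with earlier results of these data known. Alternatives were other centrings and normalizations, limits on missing values, probe rules, robust eBayes, array weights, each array left out in turn with the probes kept, and the replicate block. Promoter sequences are from RefSeq, build GRCm38.p6. Tables and figures used Python 3.11.15, pandas 2.3.3 and matplotlib 3.10.9.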

Additional observations from a re-analysis of the deposited data

Results flagged for a closer look

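In groups of 4 arrays, an array was noted when its gap to the nearest other array took up more of the range of the group than Dixon's 95% critical value for 4 allows. This held for 7 of 78 groups tested, and chance alone gives about 1 in 20. Col11a1 read 1.26 on null replicate 3, against 0.50 to 0.56 on the other null arrays. On the same array Sparc read 0.38, against 0.68 to 0.73. Col1a2 read 0.47 on wildtype replicate 1, against 0.99 to 1.09 on the other wildtype arrays, and Col27a1 read 0.47 there, against -0.12 to -0.08. On wildtype replicate 3 Col9a3 read 0.0194, against 0.71 to 0.76, Mmp24 read 0.11, against -0.45 to -0.37, and Timp2 read -0.52, against -0.07 to 0.02. Each of these 7 values came from null replicate 3 or from wildtype replicates 1 and 3.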

How the results depend on the processing

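No alternative called a feature at an adjusted p of 0.05 in limma, where 248 features had higher and 724 lower values at an unadjusted p under 0.05. Without centring, 1 gene of the set had a higher value at an unadjusted p under 0.05 in place of 4. Also without centring, 18 genes in place of 31 had a higher value at all, and the median was -0.0442. The lowest difference was then -0.96 in place of -0.67 among laminins and nidogens, and -1.78 in place of -1.63 among TIMPs. Without centring 0 of 3 TIMPs had a higher value, in place of 1. The smallest limma adjusted p of the set was 0.416 without centring, in place of 0.483. With array weights it was 0.252, the lowest among the alternatives. After scaling to equal spread 2 genes had a higher value at an unadjusted p under 0.05. With values on all 8 arrays 0 of 33 genes had a lower value at an unadjusted p under 0.05 in place of 2, since Lamc3 and Timp4 lack an array. As single probes, 7 of 76 had a higher value at an unadjusted p under 0.05 and 57 a higher value. With 1 array left out, 26 to 31 genes had higher values, 3 to 5 and 1 to 2 did so with higher and lower values at an unadjusted p under 0.05, and the median was 0.06 to 0.12. Without wildtype replicate 3 the last count was 1. The Gja1 difference was -1.04 to -0.83. Features at an unadjusted p under 0.05 numbered 28 higher and 1364 lower without centring, 174 and 440 on all 8 arrays, 380 and 920 as single probes and 325 and 427 with the trend on the mean ratio removed, chosen after seeing the data as was centring within blocks of spots. Array weights gave a median of 0.04 and the other alternatives 0.07 to 0.13. Without centring 13 of 44 genes changed sign, with array weights 8, and otherwise at most 6. With the replicate number as a block, 0 features were called, 29 genes had higher values, 5 and 2 were at an unadjusted p under 0.05, the median was 0.09 and the Gja1 difference -0.95. No array of the 8 deviated most like its own number in the other genotype. Signal over background is unknown, so that the missing spots cannot be told from dim ones.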

Other observations

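Versican had a second probe that was left out for its missing values. It read 2.46 and 2.12 on null replicates 3 and 4, against 1.08, 1.34 and 1.39 on wildtype replicates 2 to 4. The probe that was tested read 0.24 and 0.05 on these null arrays, against 0.26, 0.09 and -0.13 on these wildtype arrays. Both null values of the second probe lay above its wildtype values, those of the first did not. With values required on 2 arrays per genotype, 52 matrix genes were tested, and 35 of them had higher values in null hearts. This probe was singled out after its values were seen.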
